A study of Mus musculus with 14 samples.

Results

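The 10 genes described here are the listed members of the circadian clock and its direct outputs: Arntl, Npas2, Per1, Per2, Per3, Cry1, Nr1d1, Nr1d2, Dbp and Tef. They were taken by symbol from the gene sums of estimated counts, and all 10 were found among 36047 genes matched to the annotation. All 10 also passed the filter on low counts that left 24592 genes for testing. The series holds 14 libraries of hair follicle stem cells sorted from mouse back skin at postnatal days 18 and 20 (P18 and P20). At P18 there are 3 libraries labelled Irx5KO and 3 labelled WT, and at P20 there are 4 of each. The labels name no strain, no kind of Irx5 allele and no treatment, and they do not say whether the libraries came from separate animals, so every p-value measures the spread between libraries, which may be technical. The sort gate was Ly-6A/E-, CD34+ and positive for what the labels write as CD45f.

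The clock is a feedback loop in nearly every mammalian cell. Arntl (also called Bmal1) pairs with Clock or its relative Npas2 and switches on the Per and Cry genes, whose proteins return to the nucleus and block that pair. A second loop runs through Nr1d1 and Nr1d2, nuclear receptors that the same pair switches on and that repress Arntl, Npas2 and Cry1 at DNA elements shared with the activating Ror receptors. Dbp and Tef are leucine zipper factors that carry the rhythm to output genes through D-box elements. In tissues that follow a day, Dbp, Nr1d1 and the Per genes peak well apart from Arntl and Npas2, which is why an opposition of these sets between libraries was looked for. Hair follicle stem cells are known to differ from one another in the phase of this clock and in how readily they respond to growth signals.

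The deposited data carry a 6-digit code that was read as a date. By it the libraries fall into 4 sets: P18 earlier (Irx5KO 1, WT 1, WT 2), P18 later (Irx5KO 2, Irx5KO 3, WT 3), P20 earlier (Irx5KO 3 and 4, WT 3 and 4) and P20 later (Irx5KO 1 and 2, WT 1 and 2). Each set holds both labelled genotypes, but no date is shared between the ages, so age and date cannot be told apart. What happened on a date, and the hour at which cells were taken, are not given in the sources used here. Totals ran from 13618367 to 70083873 estimated counts per library, and the 2 shallowest libraries are on the earlier P20 date (Irx5KO 3 and WT 4). All 8 bulge stem cell markers were tested, and their summed level was 7555 to 22177 CPM (counts scaled to the depth of a library). The Y-linked gene Ddx3y marked all P18 earlier libraries and both P20 libraries numbered 1 as female and the other 9 as male, so at P18 sex and date coincide.

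The targeted gene went against its labels on 1 of the 4 dates. Irx5 ranged at P18 over 48.0 to 73.4 CPM in labelled Irx5KO and 93.9 to 132.4 in labelled WT libraries. On the later P20 date Irx5KO 1 and 2 held 30.0 and 18.1 CPM and WT 1 and 2 held 107.8 and 93.6. On the earlier P20 date the order was turned, with 180.8 and 170.2 CPM in Irx5KO 3 and 4 and 33.3 and 37.6 in WT 3 and 4. The libraries labelled Irx5KO on the earlier date and those labelled WT on the later date were also the ones rich in transcripts of dividing cells, with 5 marker genes summing to 463 to 2628 CPM against 11.6 to 41.3 CPM in the other P20 libraries. Genotype names below, with or without the word labelled, are those of the labels, and no direction is drawn from them beyond that. The deposited data of P18 WT 3 also carry the word het.

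Promoter sequence was available from RefSeq (build GRCm38.p6) for 9 of the 10 members, with 12 starts in all, and Per2 had no entry. The 250 bases before each start were searched on both strands for the E-box CACGTG, at which Arntl and its partner bind, for a variant E-box CACGTT, for the D-box TTATGTAA or TTACGTAA, at which Dbp and Tef bind, and for the core TAGGTCA or TGGGTCA of the element shared by Nr1d1, Nr1d2 and the Ror receptors. The 4 windows printed hold a searched motif and belong to members that passed a test below (Per1, Cry1, Nr1d1 and Tef at its second start). Dbp also passed a test, but its window held no searched motif and is not printed. Each is given 5′ to 3′ on the strand of its gene, in lower case, with the searched motifs in capitals, and a variant E-box on the other strand reads AACGTG. The windows are Per1 at chr11:69098699-69098948 (plus strand), Cry1 at chr10:85185055-85185304 (minus strand), Nr1d1 at chr11:98775378-98775627 (minus strand) and Tef at chr15:81811164-81811413 (plus strand).
Per1: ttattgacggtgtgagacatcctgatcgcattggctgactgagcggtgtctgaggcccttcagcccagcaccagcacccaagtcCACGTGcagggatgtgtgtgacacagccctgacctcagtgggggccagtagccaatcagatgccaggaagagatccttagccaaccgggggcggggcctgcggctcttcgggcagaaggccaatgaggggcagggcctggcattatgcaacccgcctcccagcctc
Cry1: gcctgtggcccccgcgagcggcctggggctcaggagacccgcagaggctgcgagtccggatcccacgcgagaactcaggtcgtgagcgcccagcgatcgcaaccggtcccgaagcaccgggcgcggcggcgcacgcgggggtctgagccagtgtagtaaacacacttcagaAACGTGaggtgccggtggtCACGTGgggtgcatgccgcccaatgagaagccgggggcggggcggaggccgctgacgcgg
Nr1d1: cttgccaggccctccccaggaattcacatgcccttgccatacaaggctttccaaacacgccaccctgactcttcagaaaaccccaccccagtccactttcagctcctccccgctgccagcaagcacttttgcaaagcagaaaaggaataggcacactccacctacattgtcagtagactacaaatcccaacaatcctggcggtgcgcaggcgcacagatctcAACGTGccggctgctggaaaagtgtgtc
Tef: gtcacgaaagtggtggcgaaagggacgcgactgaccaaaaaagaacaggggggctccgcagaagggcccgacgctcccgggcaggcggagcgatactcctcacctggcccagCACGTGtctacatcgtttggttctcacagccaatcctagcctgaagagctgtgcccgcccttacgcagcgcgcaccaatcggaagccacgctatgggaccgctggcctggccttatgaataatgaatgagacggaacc

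Per1 held 1 E-box, with its first base at position -166 counted back from the start. Cry1 held an E-box at -60 and a variant E-box at -79, and Nr1d1 a variant E-box at -28. The bases after that Nr1d1 start were not found in the annotated Nr1d1 transcripts used for counting, so its position rests on RefSeq alone. Tef held an E-box before each of its starts, at -127 before the first and at -138 before the second. Per3 held 2 D-boxes, TTATGTAA, at -205 and -158. No searched motif was found in the windows of Npas2, Nr1d2 and Dbp, before the second Per1 start or before either Arntl start. Over 32851 promoters of the same length, 6.02% held the E-box, 3.85% the variant, 0.931% a D-box and 5.38% the Ror core, so a match describes a window and is not evidence of a bound site. Arntl had a Ror core just after its second start, at position 31 counted from the first base of the transcript as 1, in the stretch chr7:113207532-113207556 (GRCm38.p6, plus strand), where the capitals mark the core and no motif overlaps it.
Arntl: ggcagaaagTAGGTCAgggacggag

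The sorted cells held all 10 genes, at levels that differed widely between members. Per length, in TPM (counts scaled to transcript length and depth) averaged over the 14 libraries, Per1 stood highest at 135 TPM, followed by Tef at 85.7, Nr1d1 at 50.3, Npas2 at 45.1, Nr1d2 at 30.7, Cry1 at 30.2, Arntl at 22.9, Per2 at 22.1, Dbp at 13.7 and Per3 at 2.91. Nr1d2 with Cry1, and Arntl with Per2, lay closer together than their spread over libraries. The spread between libraries, as the ratio of the highest to the lowest CPM, was 2.33 for Arntl, 2.67 for Nr1d2, 3.27 for Npas2, 4.48 for Per1, 5.03 for Cry1, 5.40 for Per3, 6.65 for Tef, 9.81 for Nr1d1, 17.0 for Per2 and 19.0 for Dbp. Arntl and Nr1d2 were thus the steadiest genes here, and Dbp and Per2 the most variable. Bulk libraries do not tell fewer cells of a type from less RNA per cell.

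**Figure D1:**
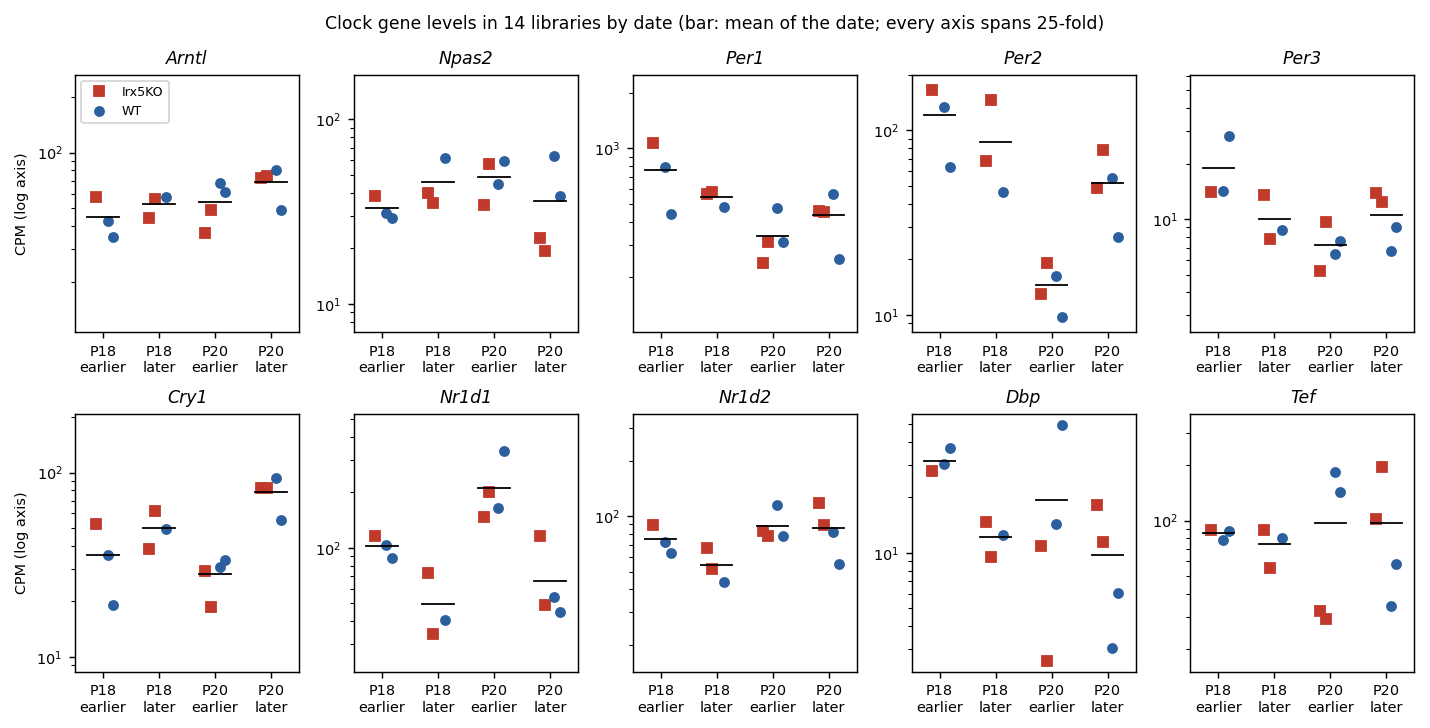
CPM of each of the 10 clock genes (log axis) in the 14 libraries, by age and date, with squares for libraries labelled Irx5KO, circles for those labelled WT and a bar at the mean of the date. On the earlier P20 date Per2 lies between 9.75 and 19.0 CPM and Nr1d1 between 147 and 334 CPM.

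Between the P20 dates 3 clock genes differed. Per2 and Cry1 were higher on the later P20 date, by 3.52-fold and 2.82-fold, and Nr1d1 was lower, while 7 members did not pass. The comparison set 4 libraries against 4, with equal weight for both labelled genotypes. It called 17% of all genes tested, and 19.6% of the well expressed genes, and the 3 of 10 members stand beside those shares and are read as 3 single genes, not as a result about clock genes as a set. The median difference of the members was 0.31 on the log2 scale, beside 0.93 over all genes tested and -0.03 over the well expressed genes used for scaling. Where sets of libraries are said below not to overlap, the share of all genes that also did not was not counted. A lack of overlap therefore only describes the values and is no evidence of a difference.

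Per2 encodes a repressor of the loop whose level also responds to hormones and temperature. It was at 48.6, 78.3, 55.2 and 26.4 CPM on the later date (Irx5KO 1, Irx5KO 2, WT 1, WT 2) and at 12.9, 19.0, 16.3 and 9.75 CPM on the earlier date (Irx5KO 3, Irx5KO 4, WT 3, WT 4). All 4 later libraries lay above all 4 earlier ones. The difference was 1.82 ± 0.38 on the log2 scale (SE, edgeR adjusted p = 0.013). Without P20 WT 4, the library lowest in Per2, the difference was 1.72 ± 0.46 and the edgeR adjusted p was 0.07, so the call was lost. That setting called 978 of all genes in place of 4184. Per2 passed in the other 22 of 23 alternatives.

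Cry1, the partner of the Per proteins in repression, was at 82.1, 82.4, 93.4 and 55.6 CPM on the later date and at 29.2, 18.6, 30.9 and 33.4 CPM on the earlier date, in the same order of libraries. The dates did not overlap, and the difference was 1.498 ± 0.26 (log2, SE, edgeR adjusted p = 0.0033). It passed in all 23 alternative settings in which this comparison could be fitted. The 6 P18 libraries spanned 19.2 to 61.9 CPM, which overlaps the later P20 date at P20 WT 2.

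Nr1d1, the repressor of the second loop, ran the other way. It was at 116, 49.1, 53.9 and 45.0 CPM on the later P20 date and at 147, 200.2, 165 and 334 CPM on the earlier date, again without overlap. The difference was -1.70 ± 0.34 (log2, SE, edgeR adjusted p = 0.01). It missed the threshold in the setting that left out the 3 libraries rich in olfactory and vomeronasal receptor transcripts (P18 WT 1, P18 WT 2 and P20 WT 2), with -1.61 ± 0.56 and an edgeR adjusted p of 0.16. Exons of Nr1d1 share 263 of 3077 bases with Thra on the opposite strand, and the strand setting of the counting is not stated. Nr1d2, its close relative, did not follow: the later libraries held 117, 88.9, 82.4 and 54.7 CPM and the earlier ones 82.8, 77.5, 115 and 78.2 CPM, a difference of -0.07 ± 0.20.

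The activators gave no call between the P20 dates. Arntl was at 72.7, 74.9, 80.9 and 49.1 CPM on the later date and at 36.9, 48.8, 68.4 and 61.2 CPM on the earlier date (0.39 ± 0.20, edgeR adjusted p = 0.16). Npas2 had the opposite sign, with 22.8, 19.3, 63.3 and 38.5 CPM on the later and 34.3, 57.4, 44.5 and 59.7 CPM on the earlier date (-0.58 ± 0.23, edgeR adjusted p = 0.084). Both ranges overlapped between dates. Npas2 passed when P20 WT 1 was left out (-0.78 ± 0.24, edgeR adjusted p = 0.032) or P20 Irx5KO 3 (-0.75 ± 0.22, edgeR adjusted p = 0.043). Per1 gave 0.40 ± 0.26 (edgeR adjusted p = 0.27) and passed without the receptor-rich libraries (0.67 ± 0.18, edgeR adjusted p = 0.012). The other members gave 0.49 ± 0.37 for Per3, -0.83 ± 0.49 for Dbp and 0.23 ± 0.24 for Tef.

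**Figure D2:**
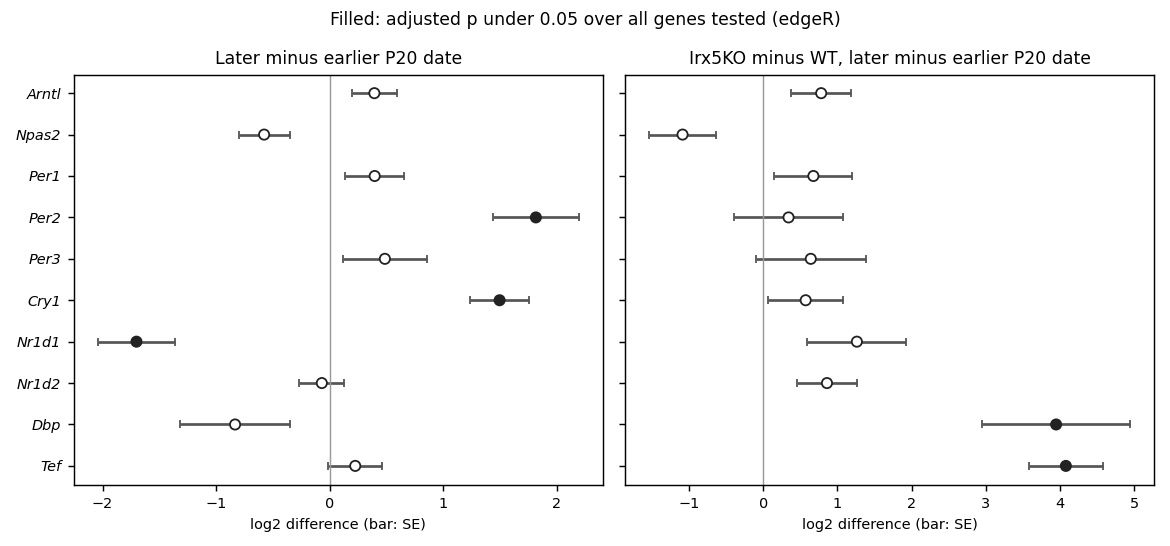
Differences of the 10 clock genes on the log2 scale with their SE, at left between the P20 dates (later minus earlier, 4 libraries each) and at right for how far the labelled genotype difference differed between those dates, with filled points for an edgeR adjusted p under 0.05. Per2, Cry1 and Nr1d1 are filled at left and Dbp and Tef at right.

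Other measured features moved between the P20 dates as well, and their part in these differences was not tested. The comparison called 17% of all genes tested, and 3353 of the 4184 genes called were higher on the later date. The median difference was 0.93 over all genes tested and -0.03 over the well expressed ones. The counts of listed genes below stand beside those values, and 1 gene called in a list is read as a single gene, not as a cell type. The 5 T cell markers summed to 152 to 784 CPM on the later date and to 32.5 to 57.5 CPM on the earlier date, and 4 of the 5 were called higher on the later date. Thy1, which other cells also express, made up most of that sum, at 755 of 784 CPM in P20 WT 2. The T cell receptor complex gene Cd3d was at 17.6, 22.3, 8.51 and 19.0 CPM on the later date and at 3.16, 4.03, 3.03 and 2.97 CPM on the earlier one, without overlap. Cry1 on the later date was at 82.1, 82.4, 93.4 and 55.6 CPM in the same order of libraries, and no relation of Cd3d to Cry1 was tested. Of the other cell type markers, 2 of 3 endothelial, 1 of 4 other immune, 1 of 5 fibroblast, 1 of 4 melanocyte, 1 of 4 sebaceous and 1 of 3 muscle genes were called higher on the later date, among them Pecam1 (1.25 ± 0.34, edgeR adjusted p = 0.023) and Cd74 (1.73 ± 0.36, edgeR adjusted p = 0.0079). Summed levels on the later and the earlier date were 8.53 to 28.4 and 3.59 to 12.0 CPM for the endothelial list and 37.2 to 122 and 13.8 to 28.8 CPM for the other immune list. Cd34, the antigen used for the sort, was lower on the later date (-0.76 ± 0.23, edgeR adjusted p = 0.038), the 1 of 8 bulge markers called. Sequencing depth was 23690517 to 41372580 estimated counts on the later date and 13618367 to 32515327 on the earlier one. Olfactory and vomeronasal receptor genes held 0.34 to 2.37% of the gene counts on the later date and 0.10 to 0.15% on the earlier one. Among temperature-responsive genes, Hspa1a and Hsph1, chaperones of the heat shock response, were lower on the later date (-0.91 ± 0.28 and -0.89 ± 0.25, edgeR adjusted p = 0.042 and 0.028), 2 of 8 genes listed. Fos, an immediate early gene, was lower too (-0.80 ± 0.25, edgeR adjusted p = 0.041), 1 of 12. Of 8 glucocorticoid-responsive genes, Per1 among them, 1 passed: Zbtb16 was higher (1.47 ± 0.38, edgeR adjusted p = 0.029).

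Between the P18 dates no member passed, in a comparison of 3 libraries against 3 that called 0.0976% of all genes. Nr1d1 was at 116, 103 and 88.01 CPM in the earlier libraries (Irx5KO 1, WT 1, WT 2) and at 40.8, 73.1 and 34.0 CPM in the later ones (WT 3, Irx5KO 2, Irx5KO 3). The dates did not overlap, and the difference was -1.17 ± 0.41 (edgeR adjusted p = 0.66). Dbp was at 27.6, 30.2 and 36.9 CPM in the earlier and at 12.5, 14.6 and 9.52 CPM in the later libraries, also without overlap (-1.31 ± 0.60, edgeR adjusted p = 0.86). Nr1d2 followed at -0.61 ± 0.25, and Npas2 had the opposite sign at 0.50 ± 0.28. With no filter on low counts, Nr1d1 passed (edgeR adjusted p = 0.0018) and the other 9 did not.

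A joint test of the 3 differences among the 4 dates, which mixes age and date, called 18.4% of all genes and 30.7% of the well expressed ones. Beside those shares it called 4 members, read as single genes: Per1 (edgeR adjusted p = 0.026), Per2 (0.0047), Cry1 (0.0058) and Nr1d1 (0.0087). Per1, the gene of this family that is quickly induced by hormones and other stimuli, was highest in the P18 earlier libraries at 765 ± 311 CPM (SD, n = 3), followed by 542 ± 52.5 in P18 later (n = 3), 433 ± 133 in P20 later (n = 4) and 333 ± 100.3 in P20 earlier (n = 4). Neighbours in that order overlapped. The Per1 call was lost when P20 Irx5KO 3, P20 Irx5KO 4 or P20 WT 4 was left out, with edgeR adjusted p-values of 0.073, 0.051 and 0.085, and with a term for sex or with scaling over all genes (0.12 and 0.26). The other 3 passed in all 20 alternatives in which the test could be fitted. Per2 followed the order P18 earlier, P18 later, P20 later, P20 earlier at 121 ± 52.4, 87.1 ± 53.0, 52.1 ± 21.3 and 14.5 ± 4.02 CPM.

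The rule for these genes asks whether Arntl and Npas2 stand opposite to Per, Dbp and Tef between libraries, and over 14 libraries they did not pass as opposed. Of 45 pairs among the 10 genes, 18 had a negative correlation of log2 CPM, and 1 pair passed after adjustment over the 45. That pair was Per1 with Per2, at Pearson r = 0.832 and Spearman rho = 0.780 (permutation p = 0.0003 and 0.0018, adjusted p of r 0.014). Without the 2 libraries farthest from the median of Per1, r was 0.756. Libraries of a date are not independent of one another, and with values centred on the mean of each date r was 0.700 and no pair passed.

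Arntl with Dbp gave r = -0.235 and rho = -0.160 (permutation p = 0.415 and 0.582). Without the 2 libraries farthest from the median of Arntl, r was -0.117, and centred on dates it was 0.166, so the sign turned. Arntl with Tef was at r = 0.347 (rho = 0.455), with Per1 at 0.209 (rho = 0.182) and with Per2 at 0.0319 (rho = -0.0418), all 3 with a sign other than that of opposition or near 0, and with Per3 at -0.322 (rho = -0.319). The permutation p-values of these 4 r were 0.222, 0.476, 0.913 and 0.264. Centred on dates, Arntl and Per1 were at r = 0.859 with an adjusted permutation p of 0.071, which did not pass.

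Npas2 had a negative r with each of the 5 genes: -0.114 with Per1, -0.399 with Per2, -0.498 with Per3, -0.312 with Dbp and -0.375 with Tef (rho 0.0506, -0.420, -0.534, -0.288 and -0.266). The permutation p-values of r were 0.699, 0.157, 0.0689, 0.276 and 0.186, so none passed. The sign with Per1 turned to 0.236 under scaling over all genes. Without the 2 libraries farthest from the median of Npas2, r with Tef was -0.0796. Arntl and Npas2, which are repressed by the same receptors, were not correlated with each other (r = 0.0839, rho = 0.240, permutation p = 0.777).

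**Figure D3:**
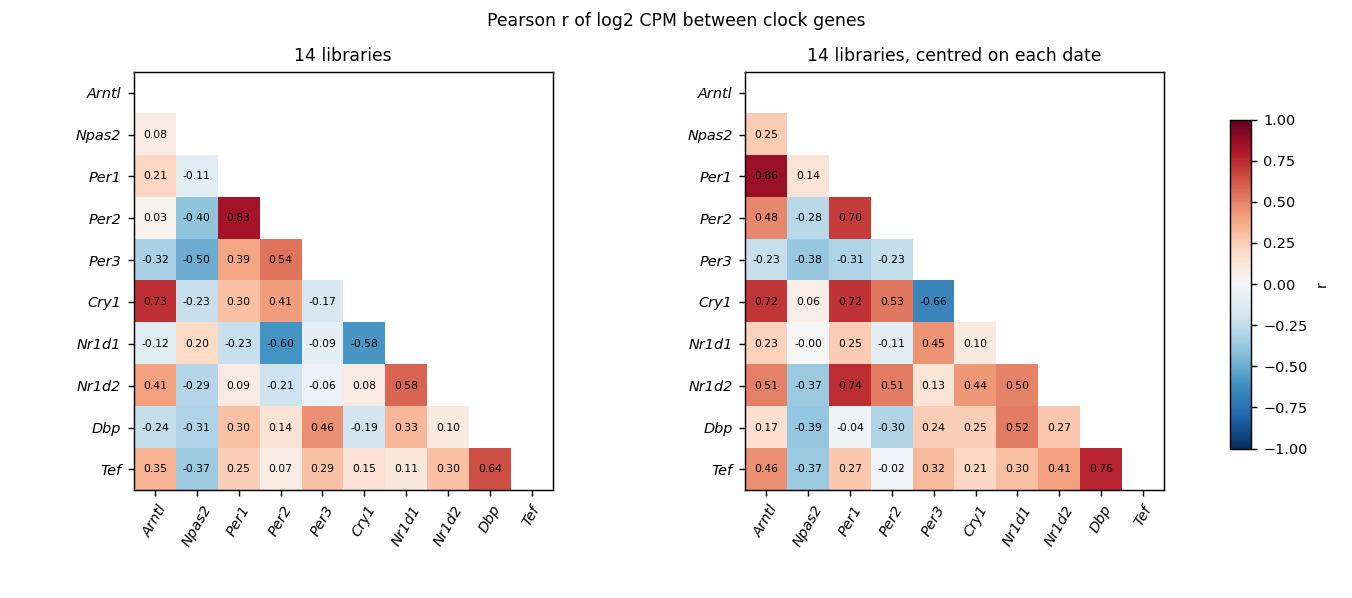
Pearson r of log2 CPM for the 45 pairs of clock genes over 14 libraries, at left as measured and at right after centring on the mean of each date, with red for positive and blue for negative r. The Arntl column is negative for Per3, Nr1d1 and Dbp at left and for Per3 alone at right, and the Npas2 column is mostly weakly negative in both.

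Other pairs were larger than those the rule names. Arntl and Cry1 moved together at r = 0.727 and rho = 0.684 (permutation p = 0.0039 and 0.0091, adjusted p of r 0.087), and at r = 0.611 without the 2 farthest libraries. Dbp and Tef gave r = 0.644 and rho = 0.626 (permutation p = 0.013 and 0.019, adjusted p of r 0.19), and 0.341 without the 2 farthest libraries. Nr1d1 was opposed to Per2 (r = -0.598, rho = -0.547, permutation p = 0.024 and 0.044) and to Cry1 (r = -0.581, rho = -0.613, permutation p = 0.030 and 0.022), without passing after adjustment. Centred on dates these were -0.109 and 0.1, so the opposition lay between dates.

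Ratios within a library do not depend on the scaling between libraries. The log2 ratio of Arntl to Dbp counts, at 0.49 and -0.09 in P18 WT 1 and P18 WT 2, was lowest in P18 WT 2 and highest in P20 WT 1 at 4.73. On the earlier P20 date alone it spanned 0.31 (WT 4) to 4.23 (Irx5KO 4), with 1.76 in Irx5KO 3 and 2.26 in WT 3. On the later P20 date it was 2.00, 2.72, 4.73 and 3.02 in Irx5KO 1, Irx5KO 2, WT 1 and WT 2. Libraries of one date therefore did not share a ratio. Its range over the 14 libraries was 4.81 in counts and 5.07 in TPM. Cry1 and Nr1d1 differed in opposite directions between the P20 dates, each without overlap, so their ratio had to separate those dates and adds no further result. The log2 ratio of Cry1 to Nr1d1 was -3.43 to -2.33 on the earlier P20 date and -0.50 to 0.79 on the later P20 date. On the P18 dates it was -2.20 to -1.14 (earlier) and -0.93 to 0.86 (later). At P18, where neither gene was called, the earlier date also lay below the later one. Nr1d1 alone did not overlap between the P18 dates, so the ratio adds no separate result there either.

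**Figure D4:**
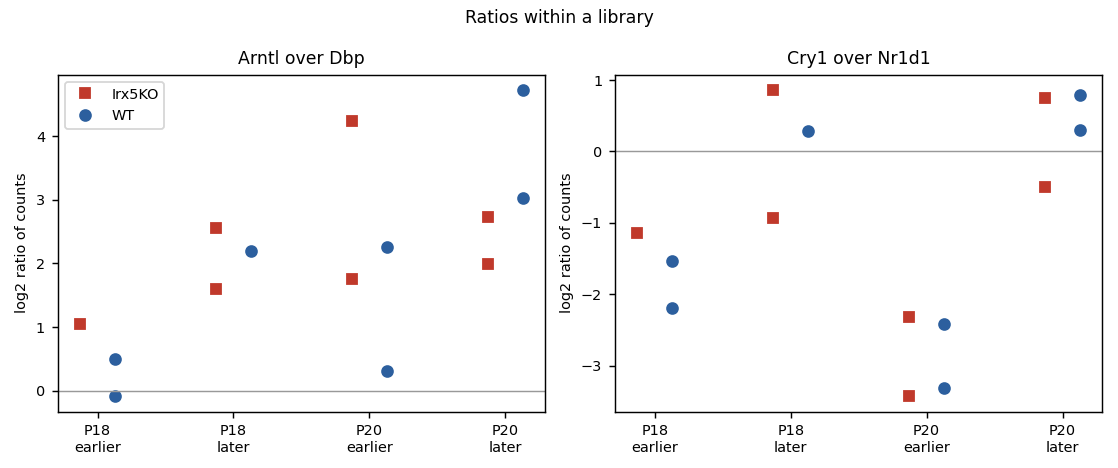
Log2 ratio of counts within each of the 14 libraries, Arntl over Dbp at left and Cry1 over Nr1d1 at right, by age and date, with squares for libraries labelled Irx5KO and circles for WT. Cry1 and Nr1d1 were called in opposite directions between the P20 dates without overlap, so separation of those dates by their ratio was given in advance. The ratio also separates the P18 dates, as Nr1d1 alone does, and neither gene was called there. Arntl over Dbp spans 0.31 to 4.23 within the earlier P20 date.

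The labelled genotype gave no call at P18, where 0% of all genes passed. The unadjusted p was under 0.05 for 977 genes of the whole table, and DESeq2 called 24 genes and limma voom 1. Labelled Irx5KO libraries 1 to 3 held 166, 67.9 and 147 CPM of Per2 and labelled WT libraries 1 to 3 held 133, 63.3 and 46.4, which overlapped (0.98 ± 0.42, edgeR adjusted p = 0.92). Per2 was the 1 member with an unadjusted p under 0.05. The 10 members' median was 0.26, beside -0.55 over all genes tested and -0.0035 over well expressed genes.

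Over both P20 dates the labelled genotype also called 0% of all genes. There 1082 genes had an unadjusted p under 0.05, and DESeq2 called 96 genes and limma voom 0. Npas2 was the 1 member with an unadjusted p under 0.05, at 22.8, 19.3, 34.3 and 57.4 CPM in Irx5KO 1 to 4 and 63.3, 38.5, 44.5 and 59.7 CPM in WT 1 to 4 (-0.73 ± 0.29, edgeR adjusted p = 0.83). The pooled value hid opposite differences for Tef and Dbp on the 2 dates.

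Tef, a D-box factor close to Dbp, differed between the labelled genotypes on each P20 date, and in opposite directions. On the earlier date the libraries labelled Irx5KO 3 and 4 held 32.5 and 29.4 CPM and those labelled WT 3 and 4 held 184 and 143 (-2.40 ± 0.36, edgeR adjusted p = 0.00097). On the later date the libraries labelled Irx5KO 1 and 2 held 102 and 195 CPM and those labelled WT 1 and 2 held 34.6 and 58.4 (1.68 ± 0.35, edgeR adjusted p = 0.039). The groups, of only 2 libraries each, did not overlap on either date. The earlier comparison called 4.83% of all genes and 8.75% of the well expressed ones, and the later one 0.655% and 1.5%. In each, Tef was the 1 member called. The test of the difference between the dates in the genotype effect called 5.17% of all genes and 10.3% of the well expressed ones. For Tef the difference was 4.08 ± 0.50 (edgeR adjusted p = 0.00012). That difference and the earlier value passed in all 23 alternatives.

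The later Tef value was less stable. It missed the threshold without P20 Irx5KO 2 (1.14 ± 0.38, edgeR adjusted p = 0.73) and without P20 WT 1 (1.35 ± 0.40, edgeR adjusted p = 0.16), which are the highest and the lowest library of that date. Without P20 Irx5KO 3, Irx5KO 4, WT 3 or WT 4, which belong to the other date, the difference was 1.68, 1.68, 1.70 and 1.70 and the edgeR adjusted p 0.065, 0.063, 0.058 and 0.059. Scaling over all genes, a filter of 1 CPM in 3 libraries and coding transcripts only gave edgeR adjusted p-values of 0.058, 0.066 and 0.079, and limma voom 0.48. The P18 libraries held Tef at 55.4 to 88.6 CPM, between these extremes.

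Dbp, the best known direct output of the Arntl pair, had the same signs as Tef. On the earlier P20 date Irx5KO 3 and 4 held 10.9 and 2.60 CPM and WT 3 and 4 held 14.2 and 49.4 (-2.24 ± 0.71, edgeR adjusted p = 0.11). On the later date Irx5KO 1 and 2 held 18.2 and 11.4 CPM and WT 1 and 2 held 3.06 and 6.05 (1.70 ± 0.70, edgeR adjusted p = 0.65). The groups, of only 2 libraries each, did not overlap on either date, but neither value passed. The earlier value passed by DESeq2 (adjusted p = 0.022), with no filter on low counts (edgeR adjusted p = 0.00057) and without P20 Irx5KO 3 (-3.61 ± 0.82, edgeR adjusted p = 0.027), and the later value passed with no filter (edgeR adjusted p = 0.041). The difference between the dates was 3.95 ± 1.00 (edgeR adjusted p = 0.043). It stayed under the threshold in 9 of 23 alternatives, and its adjusted p reached 0.31. The call was lost without P18 WT 1 (0.08), P18 WT 2 (0.07), P18 Irx5KO 2 (0.073), P18 Irx5KO 3 (0.076), P20 Irx5KO 1 (0.13), P20 Irx5KO 2 (0.087), P20 Irx5KO 4 (0.077), P20 WT 1 (0.12), P20 WT 2 (0.055) or P20 WT 4 (0.12), the edgeR adjusted p in brackets, and with a term for sex (0.065). In all 23 the difference kept its sign, from 2.85 to 5.31. Exons of Dbp share 539 of 2993 bases with Sphk2 on the opposite strand, and those of Tef 193 of 7867 with the antisense gene Gm17597.

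Transcripts of dividing cells ran opposite to Tef and Dbp at P20. Mki67, a gene of cycling cells, stood on the earlier date at 1253 and 1420 CPM in Irx5KO 3 and 4 and at 10.5 and 3.76 CPM in WT 3 and 4. On the later date the values were 18.5 and 14.5 CPM in Irx5KO 1 and 2 and 429.5 and 228 CPM in WT 1 and 2. All 5 dividing-cell markers were called higher on the earlier date and 4 of 5 lower on the later date in the libraries labelled Irx5KO. The 4 P20 libraries with the most Mki67 were the 4 with the least Tef. The same 4 held the least Dbp, though Irx5KO 3 on the earlier date, at 10.9 CPM, lay close to Irx5KO 2 on the later date, at 11.4. In the 6 P18 libraries Mki67 lay between 14.1 and 36.5 CPM. The part of dividing cells in the Tef and Dbp values was not tested.

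**Figure D5:**
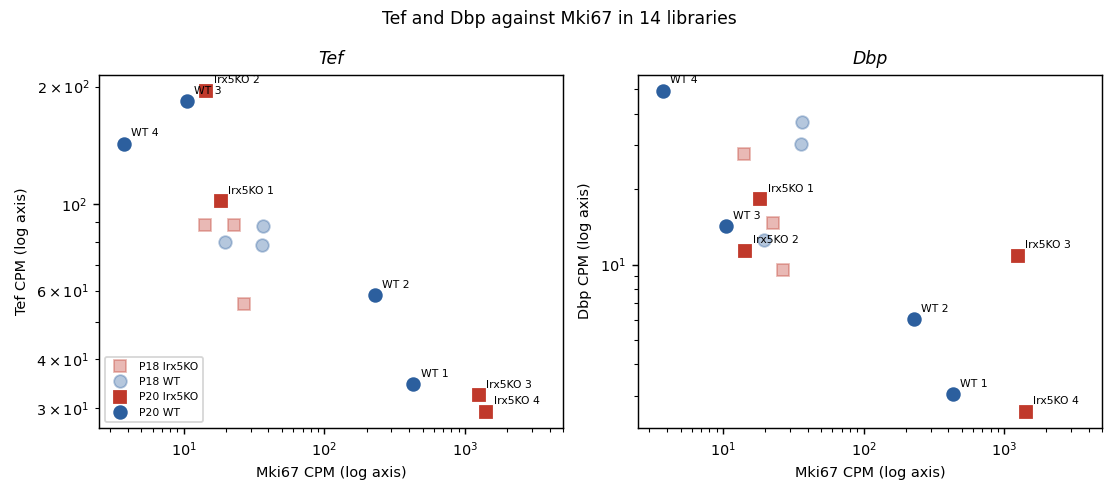
CPM of Tef (left) and Dbp (right) against CPM of Mki67, both on log axes, in 14 libraries, with pale symbols for P18, full symbols for P20, squares for libraries labelled Irx5KO and circles for WT. The 4 P20 libraries with 228 CPM of Mki67 or more hold 29.4 to 58.4 CPM of Tef, and the 4 with 18.5 or less hold 102 to 195 CPM.

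The other 8 members gave no call for how the labelled genotype difference differed between the P20 dates. Npas2 had the opposite sign to Tef and Dbp at -1.09 ± 0.45, and Nr1d1, Nr1d2 and Arntl were at 1.26 ± 0.67, 0.86 ± 0.40 and 0.78 ± 0.40. The 10 members' median was 0.73, beside -0.12 over all genes tested and -0.03 over well expressed genes. On the later date Npas2 stood at 22.8 and 19.3 CPM in Irx5KO 1 and 2 and 63.3 and 38.5 CPM in WT 1 and 2 (-1.27 ± 0.32, edgeR adjusted p = 0.13). It passed there by DESeq2 (adjusted p = 0.022), with no filter on low counts (edgeR adjusted p = 0.032) and without the receptor-rich libraries (-1.55 ± 0.35, edgeR adjusted p = 0.021). Arntl was at -0.60 ± 0.29 on the earlier date.

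Between the ages no member passed in either labelled genotype, where 1.57% of all genes passed among libraries labelled Irx5KO and 0.195% among those labelled WT. Per2 was lower at P20 by 1.68 ± 0.69 and 1.59 ± 0.69 on the log2 scale, without a call. In the libraries labelled Irx5KO it averaged 127 ± 51.9 CPM at P18 (SD, n = 3) and 39.7 ± 30.1 at P20 (n = 4), and in those labelled WT 81.0 ± 46.0 and 26.9 ± 20.1. Per1 stood at -1.01 ± 0.35 in labelled Irx5KO (edgeR adjusted p = 0.2) and Per3 at -1.19 ± 0.45 in those labelled WT (edgeR adjusted p = 0.37). By limma voom 5 members passed in those labelled WT: Arntl (0.62 ± 0.17) and Npas2 (0.70 ± 0.20) higher at P20, and Per1 (-0.95 ± 0.23), Per2 (-2.83 ± 0.51) and Per3 (-1.03 ± 0.34) lower, with adjusted p-values of 0.0059, 0.0064, 0.0029, 0.00062 and 0.016. In that setting 14321 of all genes passed, against 48 by edgeR. The limma voom setting is the only 1 in which activators and Per genes passed in opposite directions. For the same genes edgeR gave adjusted p-values of 0.58, 0.68, 0.65, 0.48 and 0.37.

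Part of what was counted for some members came from transcripts that do not code for protein, such as those with a retained intron. Their share of the counts over all libraries was 62.6% for Per3 (30.1 to 100% by library), 32.7% for Dbp (0 to 59.4%), 21.0% for Tef, 19.95% for Nr1d2, 11.9% for Arntl and 10.7% for Cry1, and under 4% for the other 4. With coding transcripts only, Per2, Cry1 and Nr1d1 still passed between the P20 dates, and Tef still passed in the genotype comparison on the earlier date and in the difference between dates. Dbp then had an edgeR adjusted p of 0.066 between the dates in the genotype effect, and Per3, whose noncoding share reached 100%, one of 0.036.

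Of 12 other genes of the core and its loops, 4 were higher on the later P20 date. That comparison called 17% of all genes and 19.6% of the well expressed ones, so the 4 are read as single genes. Among them were Arntl2, a relative of Arntl (1.63 ± 0.34, edgeR adjusted p = 0.011), and the receptors Rora (0.96 ± 0.25, 0.019) and Rorb (2.79 ± 0.34, 0.00075), which activate at the elements where Nr1d1 represses. Rorb was at 14.6, 17.5, 14.5 and 30.9 CPM on the later date and at 1.86, 1.88, 4.37 and 3.76 CPM on the earlier one, in the same order of libraries as above, with no overlap. The 12 genes' median was 0.33. Clock, the usual partner of Arntl, did not pass in any comparison and was the steadiest of these genes, at 61.9 to 105 CPM over all libraries. T cell markers moved with these genes too, and their part was not tested.

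Cry2, the other cryptochrome, stood on the earlier P20 date at 66.2 and 50.9 CPM in Irx5KO 3 and 4 and at 138 and 134 CPM in WT 3 and 4 (-1.21 ± 0.28, edgeR adjusted p = 0.022), and the difference between the dates was 1.72 ± 0.40 (edgeR adjusted p = 0.017). Timeless, which in mammals works chiefly at the DNA replication fork, went the other way, at 3.64 ± 0.50 on the earlier date (edgeR adjusted p = 0.00057), -2.42 ± 0.47 on the later date (edgeR adjusted p = 0.026) and -6.06 ± 0.69 between them (edgeR adjusted p = 6.6e-05). Of the 12 genes, 3 passed on the earlier date, 1 on the later date and 3 between them. These comparisons called 4.83%, 0.655% and 5.17% of all genes, and 8.75%, 1.5% and 10.3% of the well expressed ones. Bhlhe40, a repressor that competes for E-boxes, was lower at P20 than at P18 for labelled Irx5KO (-1.87 ± 0.32, edgeR adjusted p = 0.0095), 1 of 12. That comparison called 1.57% of all genes and 3.55% of the well expressed ones.

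Of 12 regulators of clock proteins, 3 passed between the P20 dates, in a test that called 17% of all genes and 19.6% of the well expressed ones. The same shares stand beside the output genes below. Csnk1e, a kinase that marks Per proteins for breakdown, was higher on the later date (0.73 ± 0.18, edgeR adjusted p = 0.017), as was the deacetylase Sirt1 (0.75 ± 0.24, edgeR adjusted p = 0.049), and the kinase Gsk3b was lower (-0.59 ± 0.16, edgeR adjusted p = 0.022). Within the later date, Sirt1 was also higher in libraries labelled Irx5KO than in those labelled WT (1.64 ± 0.35, edgeR adjusted p = 0.048). That genotype difference itself differed between the dates by 2.91 ± 0.50 (edgeR adjusted p = 0.0021). Sirt1 is read as a single gene, beside 0.655% and 5.17% of all genes called by these genotype tests. Of 14 output genes tested, Lonrf3 (1.22 ± 0.38, edgeR adjusted p = 0.039) and Hif3a were higher on the later P20 date. Hif3a was at 0 CPM in 2 libraries and under 20 CPM in all, so no fold is given. On the earlier date 1 of the 14, Hif3a, was lower in the libraries labelled Irx5KO, in a comparison that called 4.83% of all genes.

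Some genes that respond to handling and hormones were also called for the difference between dates in the labelled genotype effect. That test called 5.17% of all genes and 10.3% of the well expressed ones. Of these lists, 5 of 8 temperature-responsive genes were called higher, among them the cold-inducible Cirbp (2.12 ± 0.43, edgeR adjusted p = 0.008) and the heat shock gene Hspa1a (3.55 ± 0.58, edgeR adjusted p = 0.0018). Of 12 immediate early genes 4 were called higher, Atf3, Egr1, Fos and Fosb, at 1.82 to 1.99. Of 8 glucocorticoid-responsive genes 2 were, Dusp1 at 2.59 ± 0.55 and Zbtb16 at 4.17 ± 0.78. The lists' medians were 1.86, 1.53 and 1.93, beside -0.12 over all genes tested. Their part in the Tef and Dbp values was not tested.

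The genes most like Dbp and Arntl across the 14 libraries were sought outside the members. Likeness was Pearson r of log2 CPM over 9602 genes, with the members left out, and is given as a description. For Dbp the nearest were Klc2 (0.900), Gtf2h2 (0.883), Sema4g (0.862), Lrrk1 (0.849) and Lrp4 (0.848), and for Arntl they were Tmbim6 (0.932), Col4a3bp (0.927), 1700047I17Rik2 (0.922), Sfn (0.917) and Flii (0.913). Because the members were not ranked, their absence from the 5 nearest is not a result.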

How the data were processed

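Per the labels' protocols, total RNA gave single-end reads that kallisto 0.46.2 assigned to transcripts. The submitters' processing notes name the mm10 build and DESeq2. The authors deposited estimated counts and TPM values per transcript, per the file headers. Of 118489 transcripts, 116816 were matched to GENCODE vM21, and the unmatched held 1.19 to 2.59% of the counts of a library.

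Estimated counts were summed per gene, rounded to whole numbers and tested with edgeR 4.0.16 (R 4.3.3, robust quasi-likelihood, all 14 libraries), with Benjamini-Hochberg adjustment over 24592 genes and a threshold of 0.05. TMM scaling factors were computed over 10543 genes with a mean of at least 8 CPM. Genotype was tested with date as a term, and single dates with 1 coefficient per date and genotype. An SE is the log2 difference divided by the root of its F statistic. Correlations used log2 CPM with a prior count of 2 and 100000 resamples. The procedure was tested on simulated data. DESeq2 1.42.0 and limma 3.58.1 (voom) were alternatives.

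The members and all lists were chosen with earlier results of these data known. Named genes are the 10 members and those listed genes that passed, plus Clock, which was picked after its values were seen. Same-numbered libraries deviated together at P18 between genotypes (correlations 0.37, 0.15 and 0.29) and in those labelled WT between ages (0.28, 0.76 and 0.55), but not in every pair of the other comparisons. No 2 libraries of a group agreed within sampling noise. Gm129, 1 of 15 listed output genes, was not matched and is not analysed here. The values of 1 other listed gene are not reported here.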

Additional observations from a re-analysis of the deposited data

Results flagged for a closer look

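For 2 clock genes the difference between the labelled genotypes was itself different on the 2 P20 dates, by the test of that difference. For Tef it was 4.08 ± 0.50 on the log2 scale (SE, edgeR adjusted p = 0.00012). For Dbp it was 3.95 ± 1.00 (edgeR adjusted p = 0.043). For both genes, both libraries labelled Irx5KO lay below both labelled WT on the earlier date and above both on the later date. Irx5 and the markers of dividing cells turned over between the same libraries, and their part was not tested.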

How the results depend on the processing

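Each comparison was repeated under up to 25 alternatives, of which summing coding transcripts only was chosen after seeing the data. Of 2971 values under an alternative, 2503 were held the same, 402 moved, 33 lost a call, 22 gained one and 11 changed sign. A count of called genes or pairs was held the same if it stayed within a fixed ratio of the main count. The range of the Arntl to Dbp ratio was judged by the spread within groups. Other values were judged by direction and side of the threshold. The P18 date and joint date tests could not be fitted without P18 Irx5KO 1, without P18 WT 3 or without the receptor-rich libraries.

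For the genotype on the later P20 date, where 1 member was called, scaling over all genes, the filter of 1 CPM, limma voom and coding transcripts only gave 0, DESeq2 and leaving out the receptor-rich libraries 2, and no filter 3, and leaving out 1 library gave 0 to 1. On the earlier P20 date (1 called), no filter and DESeq2 gave 2, and leaving out 1 library gave 1 to 2. For the difference between the P20 dates in the genotype effect (2 called), limma voom, a term for sex and leaving out the receptor-rich libraries gave 1, and leaving out 1 library 1 to 2. No filter gave 1 between the P18 dates, where 0 were called, and limma voom 5 for age in the libraries labelled WT, where 0 were called. Leaving out 1 library gave 2 to 4 members between the P20 dates and 3 to 5 over all dates. For correlated pairs (1 passed), scaling over all genes gave 3, log2(TPM + 1) gave 2 and leaving out 1 library 0 to 2. The cause of these changes was not tested.

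The 11 sign changes were in values that had not passed. Nr1d2 between the P20 dates was at 0.10 without the receptor-rich libraries and at -0.24 to 0.15 with 1 library left out. Leaving out 1 library moved r of Arntl and Per2 over -0.16 to 0.14 and r of Arntl and Per3 over -0.62 to 0.01. The r of Npas2 and Per1 was 0.24 under scaling over all genes and 0.095 with log2(TPM + 1), and the r of Npas2 and Per2 was 0.099 with log2(TPM + 1). Scaling over all genes moved every log2 difference by -0.16 between the P20 dates, 0.25 between the P18 dates, 0.11 and -0.11 for the genotype on the later and earlier P20 date, 0.22 for the difference between them and 0.4 for age in the libraries labelled WT.

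Counts over all genes moved more. Without P20 WT 4 the P20 dates differed in 978 genes in place of 4184, without P20 WT 3 in 1622, with coding transcripts only in 2381 and by DESeq2 in 7318. The counts with 1 library left out ran over 30 to 255 on the later P20 date (161 called), 424 to 1574 on the earlier one (1189), 649 to 1447 between them (1271), 11 to 91 for the P18 date (24), 1901 to 5973 over all dates (4534), 56 to 418 for age in the libraries labelled Irx5KO (386) and 5 to 88 in those labelled WT (48). DESeq2 called 488, 2654, 2439, 327, 8474, 1416 and 563 genes in these 7 comparisons, no filter 668, 2100, 2041, 564, 7141, 352 and 55, and limma voom 32, 1894, 979, 55, 7047, 1282 and 14321. For the genotype at P18 and at P20 no filter called 183 and 209 genes. Scaling over all genes called 101 and 0 genes for age in the 2 labelled genotypes, and coding transcripts only called 6 for the P18 date, 2961 over all dates and 18 for age in the libraries labelled WT. Leaving out the receptor-rich libraries called 1878 on the earlier P20 date and 2 for age in the libraries labelled WT.

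With the replicate number as a block, 0 members were called for the genotype at P18 and at P20 and for age in either labelled genotype, so the block changed no call of a member, and 0, 0, 368 and 44 of all genes were called. Dbp was counted 47 times in P20 Irx5KO 4, and counts of that size limit its precision there.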
